A study of Mus musculus with 27 samples.

Results

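Rora, a nuclear receptor gene of the circadian clock, is described here together with 9 other clock genes, Nr1d1, Nr1d2, Clock, Per1, Per2, Cry1, Cry2, Bhlhe40 and Dbp. They are 10 of the 55483 genes counted in RAW264.7, an established mouse macrophage line. The choice rests on measured values: Rora was chosen by its counts in the HuR immunoprecipitates, which were higher with TM7nox. Its values in the immunoprecipitates are therefore given as a description with no test, and the tests that use them concern the other 9 members. All cells were harvested after 6 h with the vehicle DMSO, with LPS (lipopolysaccharide, 1 µg/ml, in DMSO), or with the same LPS and TM7nox, a tanshinone mimic, at 10 µM. Tanshinone mimics are small molecules studied for their interference with RNA binding by HuR. Each treatment has 4 libraries of total RNA, 4 of RNA recovered with an anti-HuR antibody (ribonucleoprotein immunoprecipitation, RIP) and 1 of RNA recovered with control IgG, which carries replicate number 3. TM7nox was given only with LPS, so its effect without LPS was not analysed here. Nothing in the labels says that replicates were separate cultures, so p-values measure the spread between these samples, which may be technical.

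The clock is a transcriptional loop. CLOCK pairs with BMAL1 (the Arntl gene) and activates genes through E-box sequences, among them the Per and Cry genes, whose proteins repress the pair in turn. In a second loop, RORα (from Rora) activates and the REV-ERB proteins (from Nr1d1 and Nr1d2) repress genes that carry ROR response elements, with Arntl as the best known target. BHLHE40 (DEC1) represses E-box genes, and DBP drives clock output genes through D-box sequences. In macrophages the REV-ERB and ROR receptors are also known as regulators of inflammatory genes. HuR is an RNA-binding protein that recognises U-rich and AU-rich stretches, mostly in 3′ untranslated regions (UTRs), and is best known for stabilising the mRNAs it binds.

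The 30-base stretch with the most AUUUA pentamers, the core of the classical AU-rich element, was read from the 3′ UTR of each member's canonical transcript. It is shown for the members that were recovered most with anti-HuR (Rora, Nr1d2, Clock) and for 2 that were not (Per1, Bhlhe40). Cry1, not shown, holds 2 AUUUA in its stretch, as many as Rora and Nr1d2. It was not called higher in RIP in any treatment. The other members not shown hold 1 in theirs. Capitals mark AUUUA.
Rora: accuguuaccAUUUAUUUAaguguguugcu
Nr1d2: gauuuugucaAUUUAgAUUUAauauaauuu
Clock: uuguguaguuggugAUUUAUUUAAUUUAuu
Per1: ucgcaggguuggggcugcacuuAUUUAuuu
Bhlhe40: guaaaugcuggauuuguuuuguuuuguuuu
These stretches lie at bases 7619 to 7648 of the Rora 3′ UTR, 1253 to 1282 of Nr1d2, 4858 to 4887 of Clock, 317 to 346 of Per1 and 1594 to 1623 of Bhlhe40. The Bhlhe40 3′ UTR holds no AUUUA, and its stretch was picked for its 18 uridines. The Rora 3′ UTR is 9285 bases long, longer than that of 99.6% of the 20265 coding genes measured, and holds 30 AUUUA. Clock follows with 20 in 6831 bases and Nr1d2 with 8 in 3613 bases. The other 7 members have between 0 and 3. A match is a string of letters and not a measured HuR site.

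Per exon length, Clock was the most abundant member in total RNA of DMSO-treated cells and Rora the least. Levels per kilobase of exon, in CPM (counts scaled to library size) per kb, were 3.39 ± 0.56 for Clock (SD, n = 4 here and for the next 9 values). Bhlhe40 was at 2.65 ± 1.21 and Per1 at 2.62 ± 0.164, and the libraries of these 3 genes overlapped in neighbouring pairs. Cry1 was at 1.93 ± 0.1 and Nr1d2 at 1.76 ± 0.239, which overlapped each other and lay below every library of Per1. Nr1d1, at 0.881 ± 0.0887, lay below all Nr1d2 libraries and overlapped Cry2 at 0.704 ± 0.275. Dbp was at 0.23 ± 0.0791 and Per2 at 0.154 ± 0.0203, overlapping each other, and Dbp also met the lowest Cry2 library. Rora stood last at 0.00538 ± 0.00441, below every library of Per2. In LPS-treated cells Nr1d1 had the highest mean of the members in total RNA, but its libraries spanned 2.73 to 10.7 CPM per kb and overlapped those of Per1 at 4.52 to 5.57. With LPS and TM7nox Per1 had the highest mean, and its libraries at 4.32 to 6.4 CPM per kb overlapped those of Nr1d1 at 1.73 to 7.13.

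The libraries held 2.73 to 41.4 M counted reads. The shallowest by far was total RNA of DMSO replicate 1, and every other total RNA library had at least 16.3 M. Mitochondrial transcripts took 12.1 to 22.4% of reads in total RNA, 0.559 to 1.86% in RIP and 5.31 to 6.13% in IgG. Of 10 macrophage marker genes, 9 were above 10 CPM in every total RNA library. Of 12 markers of other cell types, 10 stayed under 1 CPM in every total RNA library and 1 was at 0 in all of them. The summed level of these 12 was 0.18 to 1.91 CPM in total RNA with DMSO, 0.548 to 2.86 CPM with LPS and 0.734 to 1.04 CPM with LPS and TM7nox. In RIP it was 0.854 to 1.69 CPM, 3.47 to 5.44 CPM and 3.32 to 5.22 CPM in the same order. Its part in the members' differences was not tested. In bulk RNA, fewer cells of a type and less RNA per cell cannot be told apart.

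Rora lies on chromosome 9 (68561068 to 69295528, plus strand, GRCm39), where it spans 734.5 kb. In total RNA it was near the floor of detection. Its raw counts with DMSO were 0, 2, 4 and 4 in replicates 1 to 4, and with LPS 3, 0, 3 and 3. With LPS and TM7nox they were 0, 12, 26 and 21. The last 3 of these exceeded every DMSO and LPS library, whereas replicate 1 was at 0 and overlapped them. Mean levels were 0.0779 ± 0.0638 CPM with DMSO, 0.0812 ± 0.0561 CPM with LPS and 0.539 ± 0.41 CPM with LPS and TM7nox (SD, n = 4 each). Rora did not pass the filter on low counts in total RNA, so an exact two-sided permutation test was used. The exact permutation p was 0.143 for LPS with TM7nox against LPS (0.214 after Benjamini-Hochberg adjustment over 3 comparisons), where 4 against 4 libraries can reach 0.0286. LPS with TM7nox against DMSO gave the same exact p, and LPS against DMSO an exact p of 1. With the filter lifted and every library kept, edgeR's quasi-likelihood test gave a log2 fold change of 2.72 for LPS with TM7nox against LPS (adjusted p = 0.0644) and of 2.53 against DMSO (adjusted p = 0.0447). Without LPS with TM7nox replicate 1, the library at 0, Rora passed the filter through the other TM7nox libraries, with edgeR adjusted p-values of 0.00916 against LPS and 0.00358 against DMSO. With replicates 3 and 4 alone they were 0.00219 and 0.00106. Both settings drop the library that overlapped, so these values describe the remaining libraries and support no call.

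In the anti-HuR immunoprecipitates Rora was abundant enough to be measured in every library. RIP levels with DMSO were 2.57, 3.27, 3.37 and 3.77 CPM. With LPS they were 0.648, 0.683, 0.725 and 0.927 CPM. With LPS and TM7nox they were 8.19, 10.6, 15.2 and 25.3 CPM. The 3 treatments did not overlap: every LPS library lay below every DMSO library, and every TM7nox library lay above both. The differences these values give are a log2 fold change of -2.14 for LPS against DMSO and of 4.26 for LPS with TM7nox against LPS. They rest on 361 counts with DMSO, 57 with LPS and 1011 with LPS and TM7nox.

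**Figure D1:**
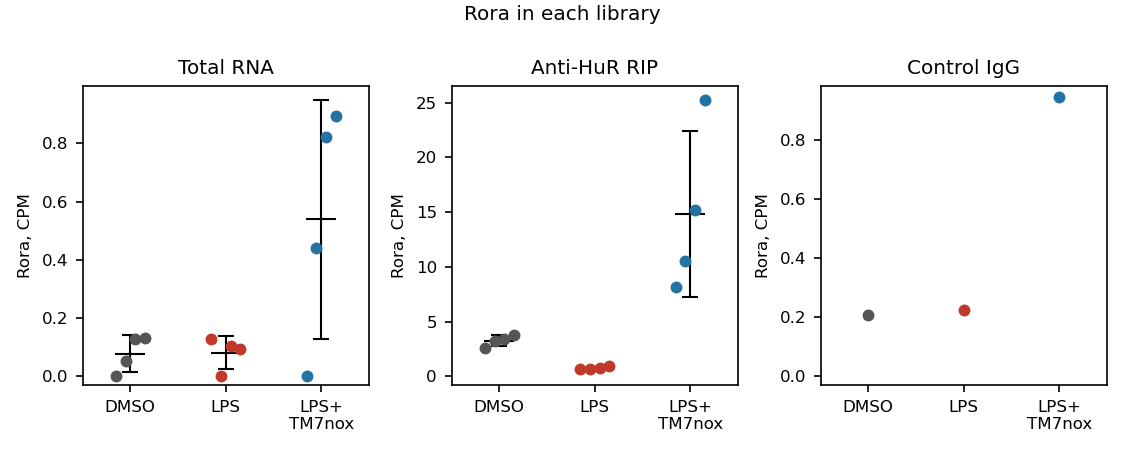
Rora in CPM (counts scaled to library size, linear axes that differ between panels) in each library of total RNA, anti-HuR RIP and control IgG, by treatment. Points are libraries, and the horizontal mark and bars give the mean and SD of 4. In RIP the TM7nox libraries sit between 8.19 and 25.3 CPM, above all DMSO and LPS libraries, while in total RNA one TM7nox library is at 0.

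The IgG libraries give the composition of the RNA recovered with control IgG. Their CPM are shares of a library and not amounts of RNA recovered. Rora had 8 counts with DMSO, 7 with LPS and 11 with LPS and TM7nox in them. As levels these were 0.208 CPM (exact Poisson 95% interval 0.0896 to 0.409), 0.224 CPM (0.0899 to 0.461) and 0.945 CPM (0.472 to 1.69), and the intervals cover counting error only. With 1 IgG library a treatment, these levels were not tested against each other. In replicate 3, the CPM of Rora in RIP exceeded that in IgG by 16.2 times with DMSO, 3.24 times with LPS and 16.1 times with LPS and TM7nox. Each ratio rests on a single IgG library.

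Recovery was measured as RIP over total RNA within a treatment, scaled so that a typical gene sits near 0. Rora passed the filter on low counts in this fit through its RIP libraries, which the choice of Rora used, so its recovery is a description with no test in every treatment. In DMSO-treated cells Rora was 34.3-fold higher in RIP than in total RNA (log2 5.1). The RNA side of this ratio holds 10 counts over 4 libraries, so its size is imprecise. With LPS the recovery of Rora stood at a log2 value of 3.17, and with LPS and TM7nox at 4.67.

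Of the other members, Nr1d2, which encodes REV-ERBβ, and Clock were recovered above their total RNA level with anti-HuR. In DMSO-treated cells these were the 2 of 9 members called higher in RIP than in total RNA and none was called lower, with Cry1 and Bhlhe40 lower at unadjusted p-values of 0.0417 and 0.0456 and not called by DESeq2, where 70.4% of all genes tested differed in one direction or the other (37% higher, 33.4% lower). With replicate number as a block, 6 of 9 members passed, against 74.9% of all genes. The 4 added were all lower in RIP: Nr1d1 (adjusted p = 0.00538), Per1 (0.0153), Cry1 (0.0133) and Bhlhe40 (0.00267). The count was also 6 without total RNA of DMSO replicate 1, the shallowest library, but with Cry2 (log2 -0.6, adjusted p = 0.00509, against -0.36 with every library) in place of Nr1d1. Single calls were gained without RIP of DMSO replicate 4 (Per1, adjusted p = 0.0433), 3 (Cry1, 0.0207) or 2 (Bhlhe40, 0.0047) and without total RNA of DMSO replicate 3 or 4 (Bhlhe40, 0.0433 and 0.0435). Most of the transcriptome differed between RIP and total RNA, so being called in this comparison does not set a member apart.

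Clock was at 70.6, 61, 54.2 and 48.1 CPM in total RNA with DMSO. In RIP with DMSO it was at 160, 180, 175 and 153 CPM. All RIP libraries lay above all RNA libraries, and the log2 recovery was 1.65 ± 0.148 (adjusted p = 3.98e-10). With LPS it was 1.57 ± 0.148 and with LPS and TM7nox 1.82 ± 0.149, so the recovery of Clock moved little between treatments. Nr1d2 gave log2 recoveries of 1.73 ± 0.246 with DMSO, 1.69 ± 0.251 with LPS and 1.87 ± 0.245 with LPS and TM7nox, each called. Against all genes these stood at the 74.5th to 77.9th percentile for Nr1d2 and the 73.5th to 76.8th for Clock.

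Per1 and Cry2, repressors of the CLOCK pair, were lower in RIP than in total RNA in both LPS treatments. With LPS, 2 of 9 members were higher in RIP (Nr1d2, Clock) and 2 lower, where 63.7% of genes were called (32.9% higher, 30.8% lower). The lower ones were Per1 (log2 recovery -0.78 ± 0.201, adjusted p = 0.00154) and Cry2 (-0.66 ± 0.23, adjusted p = 0.0145). Cry2 lost its call without RIP of LPS replicate 1 (adjusted p = 0.0505). With the replicate block Nr1d1 (adjusted p = 0.0136) and Bhlhe40 (0.00459) were called lower too, which makes 6 of 9 against 68.9% of genes. Bhlhe40 was also called without RIP of LPS replicate 2 (0.0339). With LPS and TM7nox 2 of 9 were higher (Nr1d2, Clock) and 3 lower, where 69.9% of genes were called (35.2% higher, 34.8% lower). These 3 were Per1 (-0.74 ± 0.201, adjusted p = 0.00218), Cry2 (-0.82 ± 0.229, adjusted p = 0.00269) and Nr1d1 (-1.3 ± 0.523, adjusted p = 0.0292). With the replicate block 8 of 9 were called, against 74.3% of genes, the added ones being Per2 (higher, adjusted p = 0.0184), Cry1 (lower, 0.0448) and Bhlhe40 (lower, 0.00311). The call of Nr1d1 was lost with RLE factors (adjusted p = 0.0735) and in DESeq2 (0.0862) with every library kept. It was also lost without total RNA of LPS with TM7nox replicate 1 (adjusted p = 0.192), where Per2 (0.0132) and Cry1 (0.0406) gained one, or without RIP of that treatment's replicate 3 (0.101) or 4 (0.0973).

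Whether LPS or TM7nox changed this recovery was tested as the difference of the log2 ratios. Of the 9 members tested, none passed in either test, by edgeR, by DESeq2 or at an unadjusted p under 0.05. Only 0.0419% of all genes passed for LPS against DMSO and 0.00699% for LPS with TM7nox against LPS. For Nr1d2 the difference between LPS with TM7nox and LPS was 0.19 ± 0.343, and for Clock 0.25 ± 0.204. For Bhlhe40 it was -0.00247 ± 0.517, and the SE of these values leaves room for differences of this order. The corresponding values for Rora, a description, were -1.93 and 1.51. Their RNA side holds 10 counts with DMSO, 9 with LPS and 59 with LPS and TM7nox. Each treatment has a total RNA library at 0, so the size of these values is imprecise.

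**Figure D2:**
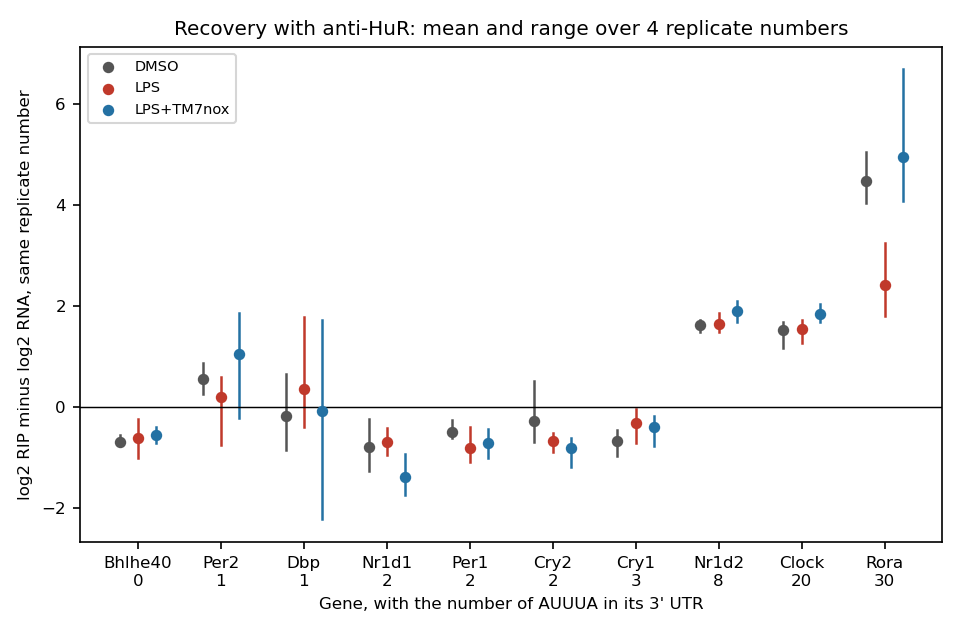
Log2 CPM in RIP minus log2 CPM in total RNA (prior count of 2) for libraries of the same replicate number, with genes ordered by the number of AUUUA in the 3′ UTR, printed under each name. Points are means and lines the range over 4 replicate numbers, coloured by treatment. Rora, Clock and Nr1d2, with 30, 20 and 8 AUUUA, lie above 0 in every treatment, while the members with 0 to 3 have lower means, of which Per2 with LPS and TM7nox is highest at 1.06. Single pairs of Per2 (up to 1.86 with LPS and TM7nox) and Dbp (up to 1.78 with LPS) reach the range of Clock and Nr1d2.

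The order of the members by recovery in DMSO was set beside their 3′ UTRs. Of the 9 members tested, the 2 called higher were those with 8 or more AUUUA. Rora, chosen on its RIP values, adds no support to this. Among the genes that passed the filter in this fit and have a 3′ UTR in the annotation, recovery also differed by this count. The median log2 recovery in DMSO was -0.8 for 2905 genes with none, -0.34 for 4402 genes with 1 to 3, 0.38 for 2254 genes with 4 to 7 and 1.03 for 1419 genes with 8 or more. Length differs along with it, with a median 3′ UTR of 434 bases in the first class and 3998 bases in the last. The part of length in this order was not tested. Nr1d1 had 6.94 AUUUA per kb in a 3′ UTR of only 288 bases, more than Rora at 3.23 per kb, and was not called higher in RIP in any treatment.

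Measured against IgG over all treatments, 5 of 9 members were called, where 68.1% of genes were (33.8% higher, 34.2% lower). Nr1d2 (log2 fold change 2.26 ± 0.253, adjusted p = 1.84e-07), Clock (1.68 ± 0.165, adjusted p = 3.02e-08) and Per2 (0.99 ± 0.342, adjusted p = 0.0151) were higher in RIP. Per1 (-0.95 ± 0.185, adjusted p = 0.00015) and Cry2 (-0.99 ± 0.159, adjusted p = 1.83e-05) were lower. The call of Per2, a low gene with 9 to 36 counts in the IgG libraries, was lost without the IgG library of LPS (adjusted p = 0.0934). With RIP replicate 3 alone, the number the IgG libraries carry, its log2 value was 0.6 (adjusted p = 0.309), and with RIP replicates 3 and 4 it was 0.71 (0.0877). Cry1 was called lower without RIP replicate 3 of LPS (0.0449) or of LPS with TM7nox (0.0399), and Bhlhe40 with RIP replicates 3 and 4 (log2 -0.46, 0.0215). In replicate 3, the CPM of Nr1d2 in RIP exceeded that in IgG by 4.04, 3.42 and 5.78 times with DMSO, LPS, and LPS with TM7nox. Bhlhe40, without any AUUUA, stood at 0.681, 0.896 and 0.717 times its CPM in IgG. The description for Rora in this fit was a log2 value of 3.4.

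Turning to treatment, LPS moved the REV-ERB pair in opposite directions in total RNA. Nr1d1, which encodes REV-ERBα, was at 3.18, 2.52, 2.73 and 2.99 CPM with DMSO. With LPS it was at 34.6, 20.9, 8.93 and 8.86 CPM. All LPS libraries lay above all DMSO libraries, with replicates 1 and 2 far above 3 and 4, and the log2 fold change was 2.69 ± 0.536 (adjusted p = 0.00104). Nr1d2 was at 14.6, 15.2, 19.2 and 14.8 CPM with DMSO. With LPS it was at 6.63, 7.77, 4.05 and 4.37 CPM. No LPS library reached a DMSO library, and Nr1d2 fell by 1.52 ± 0.258 on the log2 scale (adjusted p = 0.00029).

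Across the members 3 rose with LPS and 4 fell, out of 9 tested in total RNA, where 42% of all genes were called (20.2% higher, 21.7% lower). That share of members, 7 of 9, is above the background, but the members were chosen with results of these data known. Bhlhe40 was at 12.7, 28.3, 13.2 and 13.1 CPM with DMSO. With LPS it was at 6.93, 6.45, 4.16 and 4.65 CPM. The groups did not overlap although DMSO replicate 2 was far above the rest of its group, and Bhlhe40 fell by 1.64 ± 0.275 on the log2 scale (adjusted p = 0.000252). Dbp, a low output gene, was at 0.424, 1.08, 0.868 and 0.822 CPM with DMSO and at 0.171, 0.161, 0.137 and 0.125 CPM with LPS, again without overlap. It fell by 2.5 ± 0.485 (adjusted p = 0.000833), on 96 counts against 17, and the call was lost with replicates 1 and 2 alone (0.324). Dbp passed the filter on low counts through its DMSO libraries, the group where it is high. Its fall is therefore a description and supports no call, although the 7 of 9 include it. The activator Clock fell by 0.48 ± 0.131 (adjusted p = 0.00866), from a mean of 58.4 to 42.7 CPM. Its call was lost with no filter on low counts (adjusted p = 0.0632), with replicates 1 and 2 alone (0.101) and with replicates 3 and 4 alone (0.0504, log2 -0.25).

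Of the Per and Cry repressors, 1 of each pair rose with LPS. Per1 was at 18.2, 20.4, 20.7 and 21 CPM with DMSO. With LPS it was at 34.6, 34.8, 42.7 and 38.5 CPM. The groups were well apart, with a log2 fold change of 0.87 ± 0.132 (adjusted p = 0.000107). Cry2 rose by 0.74 ± 0.212 (adjusted p = 0.0118), from 2.54, 6.9, 7.08 and 7.66 CPM to 9.28, 12.2, 10.2 and 11.4 CPM, a call lost with replicates 1 and 2 alone (0.117). Per2 and Cry1 did not pass: their log2 fold changes were 0.76 ± 0.606 and -0.13 ± 0.194 (adjusted p = 0.35 and 0.634). Per2 with LPS was at 3.34 and 1.97 CPM in replicates 1 and 2 and at 0.687 and 0.936 CPM in replicates 3 and 4, the same split as Nr1d1.

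**Figure D3:**
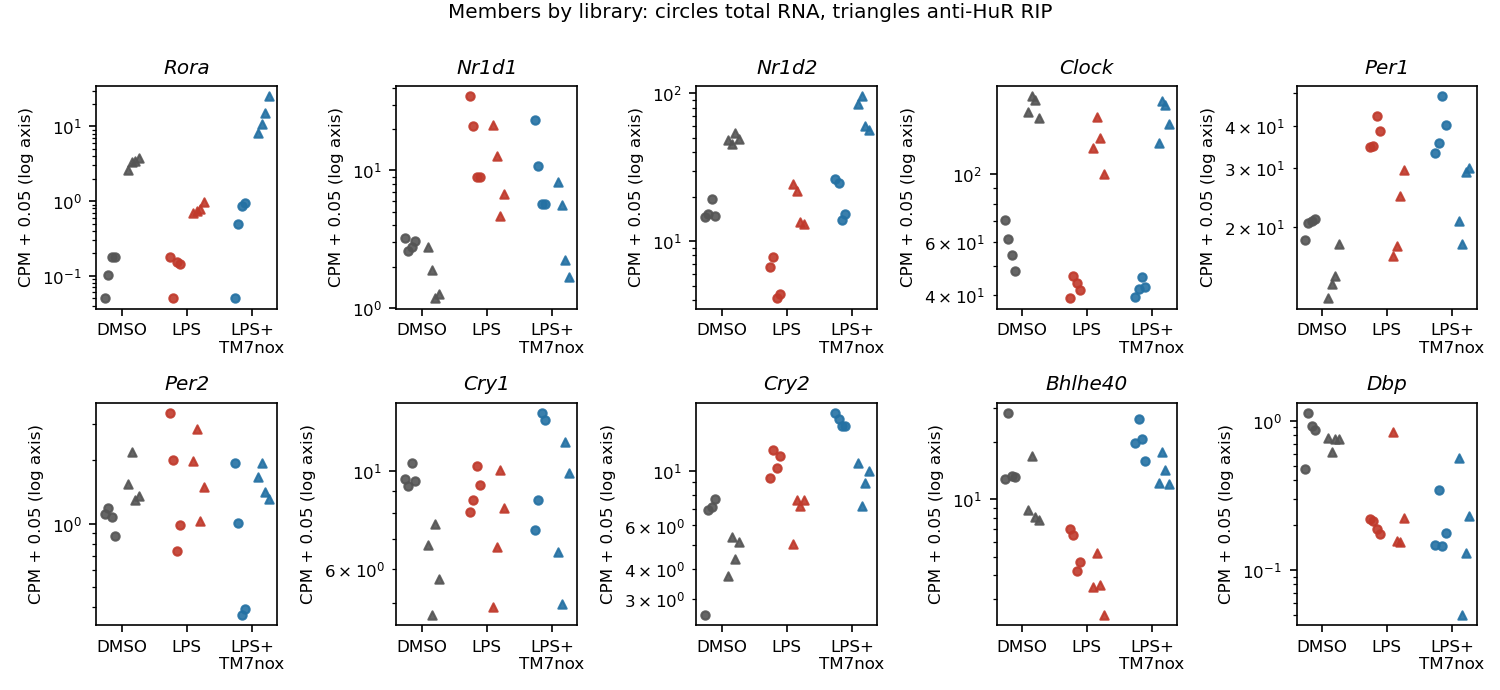
CPM plus 0.05 of each member (log axes that differ between panels) by treatment, with circles for total RNA and triangles for anti-HuR RIP, 4 libraries each in the order of replicate number. Nr1d2 and Bhlhe40 are lowest with LPS in both kinds of library. Nr1d1 has its lowest means with DMSO, though its RIP libraries with DMSO overlap those with LPS and TM7nox. Clock, Nr1d2 and Rora have their triangles above their circles.

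With TM7nox added to LPS, Nr1d2 and Bhlhe40 were the members called changed in total RNA. Nr1d2 was at 26.4, 24.8, 13.8 and 15.3 CPM, above all LPS libraries, which is a log2 fold change of 1.82 ± 0.257 (adjusted p = 0.000375). Bhlhe40 was at 19.7, 26.3, 20.6 and 15.8 CPM, also above all LPS libraries (log2 1.9 ± 0.274, adjusted p = 0.00044). Thus 2 of 9 members rose, where 13.8% of genes were called (7.37% higher, 6.4% lower). No member was called lower, by this test or by DESeq2, and none of those with lower values reached an unadjusted p under 0.05 in it. DESeq2 also called Cry2 higher (log2 0.55, adjusted p = 0.0196). Both genes had fallen with LPS, and the 2 comparisons share the LPS libraries. Compared directly with DMSO, Nr1d2 differed by 0.3 ± 0.249 (adjusted p = 0.348) and Bhlhe40 by 0.25 ± 0.264 (adjusted p = 0.458), neither past the threshold. Without total RNA of DMSO replicate 2, the library where Bhlhe40 was highest, that difference for Bhlhe40 was called (adjusted p = 0.0339).

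Pairing by replicate number added 2 members to the TM7nox comparison, 4 of 9, against 25% of all genes. Nr1d1 was at 23.1, 10.6, 5.66 and 5.61 CPM with LPS and TM7nox, lower than LPS alone in every replicate number though the groups overlapped. Its log2 fold change was -0.71 ± 0.481 (adjusted p = 0.391), and -0.72 with the replicate block (adjusted p = 0.0486). Nr1d1 was also called lower with no filter on low counts (adjusted p = 0.0158) and with replicates 3 and 4 alone (0.00958). Its log2 value ranged from -1.33 without LPS with TM7nox replicate 1 (adjusted p = 0.0686) to -0.19 without LPS replicate 1 (0.86). Cry2 was at 17.2, 16.3, 15.2 and 15.2 CPM, above every LPS library (log2 0.57 ± 0.206, adjusted p = 0.0851, and 0.0349 with the block). The remaining 5 members had log2 fold changes between -1 (Per2, adjusted p = 0.329) and 0.24 (Cry1, adjusted p = 0.484), none past the threshold. Clock stood at 42.7 CPM with LPS and 42.4 CPM with LPS and TM7nox.

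Set against DMSO, 5 of 9 members still differed with LPS and TM7nox, where 47.3% of genes were called (23.7% higher, 23.6% lower). Nr1d1 (log2 1.98 ± 0.531, adjusted p = 0.00703), Per1 (0.94 ± 0.132, adjusted p = 4.31e-05) and Cry2 (1.31 ± 0.213, adjusted p = 0.000164) were higher. Dbp (-2.43 ± 0.488, adjusted p = 0.000923) and Clock (-0.49 ± 0.132, adjusted p = 0.00706) were lower. Since Dbp passed the filter through its DMSO libraries, its place among the 5 is a description. Clock lost this call with no filter (0.0533), with replicates 1 and 2 alone (0.0573) and with replicates 3 and 4 alone (0.139, log2 -0.18), and Dbp with replicates 1 and 2 alone (0.339). The 4 members not called were Nr1d2, Bhlhe40, Per2 and Cry1, and a p that misses the threshold does not show equal levels. With replicates 3 and 4 alone, Per2 was called lower (log2 -1.46, adjusted p = 0.0147), and Cry1 (0.45, 0.00942) and Bhlhe40 (0.5, 0.0114) higher.

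In the immunoprecipitates 5 of 9 members were called with LPS, where 44.7% of genes were (23.5% higher, 21.2% lower). Nr1d2 fell by 1.45 ± 0.232 (adjusted p = 0.000106), from 48.4, 45.6, 54.1 and 48.8 CPM to 24.3, 21.9, 13.5 and 13 CPM, without overlap. Bhlhe40 fell by 1.53 ± 0.282 (adjusted p = 0.000382), and Nr1d1 rose by 2.7 ± 0.533 (adjusted p = 0.000706). Per1 (0.59 ± 0.221, adjusted p = 0.0396) and Cry2 (0.54 ± 0.202, adjusted p = 0.0401) were higher near the threshold, with overlapping groups. Per1 lost its call without DMSO replicate 1, 2 or 3 (adjusted p = 0.126, 0.109 and 0.11) and without LPS replicate 3 or 4 (0.112 and 0.175). Cry2 lost its call without DMSO replicate 1, 3 or 4 (0.146, 0.131 and 0.0606) and without LPS replicate 2, 3 or 4 (0.117, 0.103 and 0.119). With the replicate block Clock (-0.43, adjusted p = 0.00672, 0.0534 without it) and Dbp (-1.47, adjusted p = 0.0301, 0.194 without it) were called lower as well, which makes 7 of 9 against 59.3% of genes. Clock was also called with every library kept by RLE factors (0.0489) and by DESeq2 (0.0226), and without LPS replicate 2 (0.0169) or DMSO replicate 4 (0.0498), and Dbp without LPS replicate 1 (0.0194). Dbp in RIP was at 0.786 CPM in LPS replicate 1 and at most 0.174 CPM in the other three LPS libraries. In RIP, too, Dbp passed the filter through its DMSO libraries, so its calls there are descriptions.

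With TM7nox, Nr1d2 and Bhlhe40 rose in RIP too. Nr1d2 reached 84.8, 95.5, 59.6 and 56 CPM, all above the LPS and the DMSO libraries (log2 1.97 ± 0.235 against LPS, adjusted p = 5.53e-05). Bhlhe40 was at 12.1, 17.5, 14.2 and 12 CPM, above LPS at 3.42, 5.2, 3.52 and 2.43 CPM (log2 1.89 ± 0.284, adjusted p = 0.000392). These were 2 of 9 members tested, where 16.2% of genes were called (8.64% higher, 7.61% lower), and no member was called lower, with 1 (Nr1d1) at an unadjusted p under 0.05 and called by DESeq2 (adjusted p = 0.031). Nr1d1 went from 21.5, 12.6, 4.61 and 6.66 CPM with LPS to 8.19, 5.56, 2.2 and 1.62 CPM with LPS and TM7nox. It was lower in every replicate number, with overlapping groups: the log2 fold change was -1.41 ± 0.506 (adjusted p = 0.0686), and with the replicate block it was called (adjusted p = 3.06e-05), which makes 3 of 9 members against 33.6% of genes. It was also called without LPS with TM7nox replicate 1 (adjusted p = 0.0247) or without LPS replicate 3 (0.037). The changes of Nr1d2 in RIP and in total RNA were of like size, as were those of Bhlhe40, and the difference between RIP and RNA did not pass for either, as given above.

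**Figure D4:**
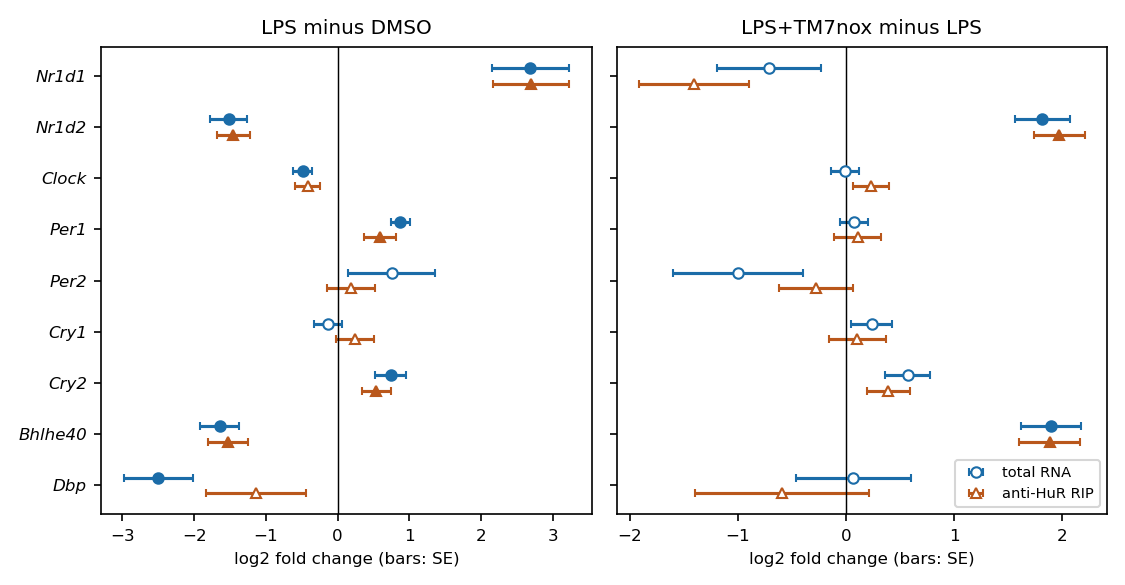
Log2 fold changes with SE of 9 members (Rora left out) in total RNA (circles) and anti-HuR RIP (triangles), for LPS minus DMSO on the left and LPS with TM7nox minus LPS on the right. Filled symbols have an adjusted p under 0.05. Nr1d2 and Bhlhe40 lie below 0 on the left and near 1.9 on the right in both kinds of library.

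Some members share their locus with other genes, and whether reads were counted by strand is not given in the sources used here. Nr1d1 (chromosome 11, 98658752 to 98666188, minus strand) overlaps the end of Thra on the other strand. Thra, a thyroid hormone receptor gene, had 687 counts in total RNA over the DMSO libraries, 1039 with LPS and 592 with LPS and TM7nox. Nr1d1 had 289, 2001 and 1077. Dbp (chromosome 7, 45354512 to 45359627, plus strand) overlaps Sphk2 on the other strand, which had 1336, 3774 and 4498 counts and so moved against Dbp with LPS. Clock overlaps Tmem165 on the other strand, with 4608, 6793 and 5138 counts. On its own strand lie Ube2n-ps1, with 291, 388 and 281 counts in total RNA and 772, 696 and 729 in RIP, and Gm43658, with 17, 12 and 2 in total RNA and 146, 75 and 43 in RIP. Within Rora, the overlapping Gm15511 had 0, 0 and 4 counts. Nr1d2 (chromosome 14, 4230545 to 4266624), Per1, Per2 and Cry1 overlap no other counted gene.

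The annotated start sites of the members were searched for clock motifs, from 250 bases before to 50 after, on both strands. The E-box CACGTG lies in this window in Per1, Cry1 and Bhlhe40, and in 7.86% of 21437 promoters. The ROR element core TAGGTCA lies in Dbp, and in 2.51% of promoters. They are shown because these 4 genes did not move together with LPS: Per1 rose, Bhlhe40 and Dbp fell and Cry1 did not pass. Capitals mark the motifs, among them in Cry1 a variant E-box read on the other strand, and all are written 5′ to 3′ on the gene's strand in GRCm39.
Per1, chr11:68989221-68989267, plus strand: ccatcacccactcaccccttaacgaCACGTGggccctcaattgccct
Cry1, chr10:85020950-85021022, minus strand: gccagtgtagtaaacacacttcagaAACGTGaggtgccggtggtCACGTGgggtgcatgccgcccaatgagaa
Bhlhe40, chr6:108636379-108636434, plus strand: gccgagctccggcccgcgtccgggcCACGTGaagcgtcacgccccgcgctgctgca
Dbp, chr7:45354298-45354354, plus strand: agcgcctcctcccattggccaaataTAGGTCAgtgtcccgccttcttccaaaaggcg
The other 2 motifs searched were the variant E-box CACGTT, held by 5.01% of promoters, and the D-box TTATGTAA, held by 0.952%. CACGTT lies in the windows of Nr1d1, Per2, Cry1 and Cry2, and TTATGTAA in that of Per2. None of the 4 lies in the windows of Rora, Nr1d2 and Clock. That says only that these letters are not in this window.

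Beyond the members, 30 other clock genes were examined, of which 24 passed the filter in total RNA. With LPS 7 of 24 rose and 7 fell in total RNA, beside the 42% of all genes called. With the block 17 were called, for which the share of all genes is not given here. The median log2 fold change of the 24 was -0.07, against -0.04 over all genes.

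The falls with LPS were the larger ones. Per3, the third Per gene, fell by 3.11 ± 0.587 (adjusted p = 0.000667), on 192 counts with DMSO against 30 with LPS. Per3 passed the filter on low counts through its DMSO libraries, the group where it is high. Its fall is therefore a description and supports no call, although the count of genes that fell includes it. Usp2, a deubiquitinase gene, fell by 2.3 ± 0.384 (adjusted p = 0.00025). Bhlhe41, which encodes DEC2, the closest relative of BHLHE40, fell by 1.87 ± 0.277 (adjusted p = 9.11e-05). Tef, a relative of Dbp, fell by 1.49 ± 0.306 and Tipin, a partner of Timeless, by 1.15 ± 0.156. The one rise of 1 log2 unit or more was Nfil3 (1.44 ± 0.24, adjusted p = 0.000249), which encodes a repressor that competes with DBP for D-boxes. Arntl rose by 0.72 ± 0.174 (adjusted p = 0.00415).

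With TM7nox 5 of the 24 rose and 1 fell in total RNA, beside 13.8% of all genes called, and 14 were called with the replicate block, beside 25%. Bhlhe41 rose as Bhlhe40 did, by 1.59 ± 0.275 (adjusted p = 0.00153). Ciart, a repressor of the CLOCK pair, rose by 1.12 ± 0.241 (adjusted p = 0.00684) and Arntl by 1.08 ± 0.171 (adjusted p = 0.000842). Arntl means were 13.2 ± 0.975 CPM with DMSO, 22.3 ± 6.67 CPM with LPS and 47.1 ± 2.94 CPM with LPS and TM7nox. Cipc (0.84) and Gsk3b (0.48) also rose and Tipin fell by 0.69 (named after their values were seen). In RIP with LPS alone, 3 of the 24 rose and 5 fell, beside 44.7% of all genes called, and 16 were called with the block, beside 59.3%. In RIP with TM7nox 10 rose and 1, Timeless, fell, beside 16.2% of all genes called, and 16 were called with the block, beside 33.6%. The largest of the 10 rises were Bhlhe41 (2.09 ± 0.346), Ciart (1.46 ± 0.234) and Usp2 (1.41 ± 0.312). Without RIP of LPS replicate 1 the count was 6, and without RIP of LPS with TM7nox replicate 4 it was 7, in place of 11. It was 3 with replicates 1 and 2 alone and 4 with replicates 3 and 4 alone. The share of all genes called is not given for these settings.

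**Figure D5:**
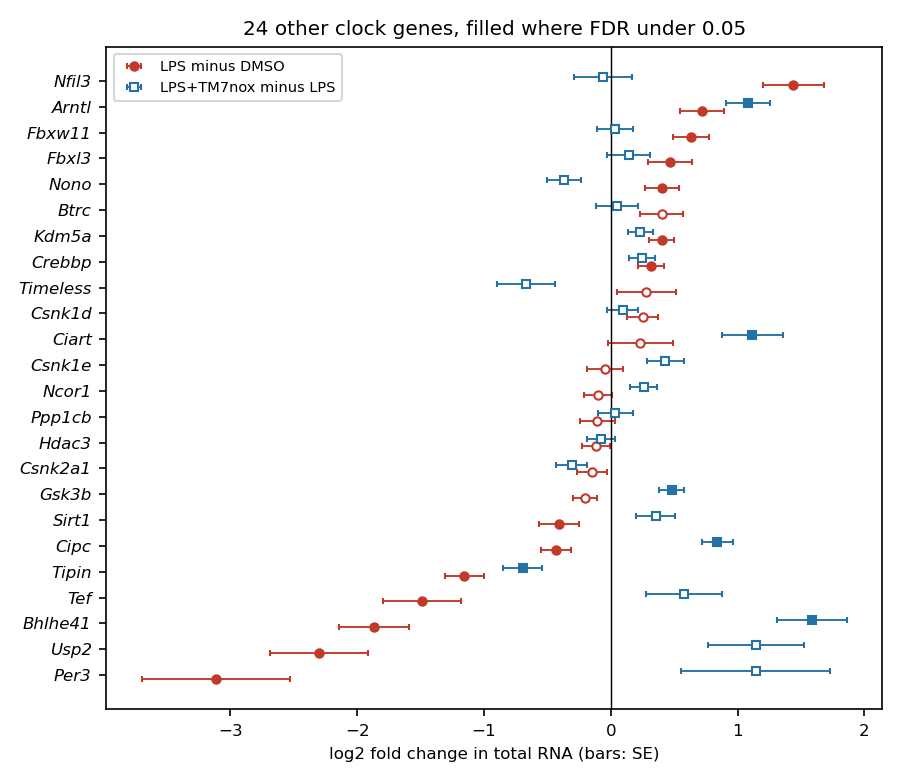
Log2 fold changes with SE in total RNA of the 24 other clock genes that passed the filter, ordered by their change with LPS. Circles are LPS minus DMSO and squares LPS with TM7nox minus LPS, filled where the adjusted p is under 0.05. Per3, Usp2, Bhlhe41 and Tef have the lowest values with LPS, and Bhlhe41, Ciart and Arntl are the called genes furthest to the right with TM7nox. Per3 passed the filter through its DMSO libraries, so its value with LPS is a description.

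Bhlhe41 differed from Bhlhe40 in its recovery. It averaged 10.1 ± 3.37 CPM in total RNA and 174 ± 70.7 CPM in RIP with DMSO, a log2 recovery of 4.16 ± 0.368 (adjusted p = 2.81e-10). The value for Bhlhe40 was -0.6 ± 0.288 (adjusted p = 0.0633, called lower with the block). Of the 24 other clock genes, 13 were higher and 5 lower in RIP than in total RNA with DMSO, beside 70.4% of all genes called (19 called with the block, beside 74.9%). Their median log2 recovery was 1.15 against -0.36 for the 9 members other than Rora and 0.04 for all genes.

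A list of 13 genes known as ROR or REV-ERB targets, which includes Clock, Cry1 and Nr1d1 themselves, was read beside Rora. Of 12 tested in total RNA, 7 rose and 3 fell with LPS, beside 42% of all genes called. With TM7nox, where 13.8% of all genes were called, 1 rose, Arntl, and 4 fell: the cell cycle gene E2f8 (-1.39 ± 0.293), the chemokine receptor gene Cx3cr1 (-1.97 ± 0.445), the protease gene Mmp9 (-1.69 ± 0.347) and the cholesterol transporter gene Abca1 (-2.48 ± 0.139). These were named after their values were seen. The list mixes clock and inflammatory genes, and its median log2 fold change with TM7nox was -0.57 against -0.0026 over all genes. The 10 macrophage markers, none of them in this list, had a median of -0.41 in the same comparison, with 4 called lower and 0 higher.

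The genes whose level followed Rora most closely were read from the correlation of log2 CPM over the 12 libraries of each kind, as a description. The libraries share the treatment groups, and Rora itself was near the floor in total RNA. Over the RIP libraries the highest of 11277 genes were Kat6b (Pearson r = 0.988), Glce (0.966), Gm30329 (0.966), Klf9 (0.957) and Tsc22d3 (0.957). Tsc22d3, known as a glucocorticoid-induced gene, averaged 118 CPM with DMSO, 49.9 with LPS and 254 with LPS and TM7nox in RIP. Over the total RNA libraries the highest of 10610 genes were Vps33a (0.973), Smim14 (0.899), Cep120 (0.892), Gm10503 (0.873) and Cep63 (0.871). No gene was among the first 5 in both.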

How the data were processed

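The authors deposited 1 table of raw read counts per gene for 27 libraries (12 total RNA, 12 anti-HuR RIP, 3 IgG), with no normalization. Per the submitters' processing notes, FastQC 0.11.9, STAR, HTSeq and DESeq2 were used with build GRCm39, and neither source names the strand setting or annotation release (not given in the sources used here). Per the labels' protocols, libraries were made with a stranded kit from 7 ng of RNA. From these counts, edgeR 4.0.16 (R 4.3.3) quasi-likelihood tests were run over all genes passing filterByExpr with a minimum count of 10 (12369 genes in total RNA, 13614 in RIP, 14311 over both, 14973 with IgG), with TMM factors and Benjamini-Hochberg adjustment, called at 0.05. CPM use the same factors, so recovery in RIP is measured against a typical gene. Total RNA, RIP, and both together were each fitted with all 3 treatments, sharing 1 estimate of spread. IgG was fitted with treatment as a covariate. Rora is tested in total RNA only.

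Replicate numbers come from the labels. Same-numbered libraries deviated together in all 8 comparisons, with correlations of 0.116 to 0.392 over 18480 genes, all above 0.1. Values with the number as a block are therefore given where they change a call of a member. Closest replicates differed by more than sampling noise (chi-square per gene of at least 38). All 10 members are named. Of the other clock genes, those called and changed by 1 log2 unit or more were named, and the 5 genes most like Rora with a mean of at least 1 CPM. The members and lists were chosen with earlier results of these data known. On simulated counts for total RNA of LPS with TM7nox against LPS (12105 genes), 48 to 52% of genes changed by 1 log2 unit and 86 to 90% of those changed by 2 were recovered, with 4 false calls. Positions, 3′ UTRs and promoters were read from GRCm39 with GENCODE, in 1-based coordinates. Alternatives were RLE factors, DESeq2 1.42.0, no filter, the replicate block, replicates 1 and 2 or 3 and 4 alone, and each library left out.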

Additional observations from a re-analysis of the deposited data

Results flagged for a closer look

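In 60 groups of 4 libraries (10 members, 6 groups), 7 held 1 library far from the other three, with a gap to its neighbour, as a share of the range, above Dixon's 95% critical value. Chance gives about 1 in 20 groups. Bhlhe40 stood out in DMSO replicate 2 in both kinds of library, at 28.3 CPM in total RNA (the others 12.7 to 13.2) and 16.8 CPM in RIP (7.78 to 8.7). Nr1d2 was at 19.2 CPM in total RNA of DMSO replicate 3 (14.6 to 15.2). Cry2 was at 2.54 CPM in total RNA of DMSO replicate 1, the shallowest library (6.9 to 7.66). Dbp stood out in 3 groups with few counts: 0.294 CPM in total RNA of LPS with TM7nox replicate 2 (0.0949 to 0.127), 0.562 CPM in RIP of DMSO replicate 2 (0.698 to 0.711) and 0.786 CPM in RIP of LPS replicate 1 (0.104 to 0.174).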

How the results depend on the processing

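Of 1584 alternative values for the 9 members other than Rora, 36 lost and 65 gained a call and none reversed a called direction, while 105 changed sign without being called either way. Nr1d2 kept its calls and its lack of one under every alternative run. The counts of members called moved by over 1.5 times as follows. Except with the replicate block, the share of all genes called under each setting is not given here. The counts therefore do not tell a shift of the members from one over all genes. With replicates 1 and 2 alone, they were 4 in place of 7 for LPS against DMSO in total RNA, 1 in place of 2 for LPS with TM7nox against LPS, 3 in place of 5 for LPS with TM7nox against DMSO, and 3 in place of 5 for LPS against DMSO in RIP. With replicates 3 and 4 alone, they were 5 in place of 2 for LPS with TM7nox against LPS in total RNA, and 6 in place of 2 for RIP over RNA in DMSO. That last count was also 6 with no filter on low counts. With the replicate block the counts were 4 for LPS with TM7nox against LPS in total RNA, 6 for RIP over RNA in DMSO and 8 in place of 5 for RIP over RNA in LPS with TM7nox; beyond the values given with the results, the block changed no other call of a member. Leaving out 1 library at a time gave 3 to 6 members for LPS against DMSO in RIP and 2 to 6 for RIP over RNA in DMSO, and 6 there was the count without the shallow DMSO replicate 1. Among the other clock genes, LPS against DMSO in total RNA fell from 14 to 2 called with replicates 1 and 2 alone. In place of 6, LPS with TM7nox against LPS gave 10 with DESeq2, 1 with replicates 1 and 2 and 15 with replicates 3 and 4. For these counts, too, the share of all genes called is not given. Bhlhe40 missed the threshold for TM7nox against LPS in total RNA with replicates 1 and 2 alone (adjusted p = 0.0523). Other calls of members moved with the filter lifted, with replicates 1 and 2 or with replicates 3 and 4. For LPS against DMSO in RIP, Cry2 lost its call in all 3 settings and Per1 with replicates 1 and 2, and Dbp gained one with replicates 3 and 4. For LPS with TM7nox against LPS, Nr1d1 in RIP was called lower in all 3, and Cry1 and Cry2 in total RNA were called higher with replicates 3 and 4. For RIP over RNA, Nr1d1, Cry1 and Bhlhe40 with DMSO, and Nr1d1 and Bhlhe40 with LPS, were called lower with the filter lifted and with replicates 3 and 4. Per1 with DMSO was called lower with the filter lifted and Cry2 with replicates 3 and 4. With LPS and TM7nox, Bhlhe40 was called lower in both settings and Per2 higher with replicates 3 and 4. Cry2 lost its call with replicates 1 and 2 in both LPS treatments. The cause of these shifts was not tested, although 2 libraries a group leave less information. Rora in total RNA and Dbp rest on few counts.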
